A study of Sus scrofa with 24 samples.

Results

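The ZNF genes carry the symbol given to human zinc finger genes, most of the C2H2 type, and their transcripts were followed across 4 tissues of the same 6 pigs. A member was any gene whose name on the array was ZNF followed by digits, and 155 names met that rule through 212 probes. Each gene was represented by its probe of highest mean level over the 24 arrays. A gene was kept where, in 1 tissue or more, that probe stood well above background on each of the 6 arrays, which held for 128 of the 155 genes. No expression difference entered the choice, although the requirement of signal in 1 tissue admits a gene through the tissue in which it is high.

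C2H2 zinc finger proteins form the largest class of sequence-specific DNA-binding proteins in mammals. Each finger is a short loop folded around a zinc ion by a pair of cysteines and a pair of histidines. Many members carry a KRAB domain, which recruits the corepressor TRIM28 together with the histone methyltransferase SETDB1 and HP1 proteins, and many KRAB proteins silence transposable elements. Other members carry a SCAN or BTB domain, through which they pair with related proteins. The remaining members have neither and include activators, repressors and proteins that act on RNA or ribosomes. Domain classes were assigned by hand from the human proteins of the same names: 48 of the 61 KRAB genes on the array were kept, 5 of 7 SCAN genes, all 3 BTB genes and 72 of 84 others.

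The array reads each gene through 60-base probes, and those of the genes that carry the results are shown. The first 3 are those of members described in detail later, ZNF827 with little signal in Liver and ZNF366 and ZNF467 highest in Spleen. The files give no strand for the probes.
ZNF827: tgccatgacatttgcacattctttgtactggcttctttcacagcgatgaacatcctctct
ZNF366: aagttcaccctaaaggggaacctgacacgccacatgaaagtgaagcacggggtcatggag
ZNF467: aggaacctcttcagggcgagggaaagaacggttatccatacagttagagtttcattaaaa

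The probes of ZNF385D read different tissue patterns, so that both sequences are needed.
ZNF385D, probe of highest mean: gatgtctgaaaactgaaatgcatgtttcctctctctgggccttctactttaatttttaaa
ZNF385D, other probe: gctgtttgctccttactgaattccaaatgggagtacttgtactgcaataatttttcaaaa

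The groups were Peyer (jejunum that contains Peyer's patches), Spleen, Jejunum (jejunum free of patches) and Liver, with 6 arrays each. All samples came from untreated crossbred pigs weaned at 28 days and killed at 10 weeks of age, with feed and water freely available, and each pig gave all 4 tissues. One-colour arrays were hybridised with RNA of whole tissue, so fewer cells of a type and less RNA per cell cannot be told apart. Slides 1 to 3 held Liver and Spleen and slides 4 to 6 held Jejunum and Peyer, so Spleen against Liver and Peyer against Jejunum were measured within slides, while any comparison across these sets cannot be told apart from the slides. The 75th percentile of signal, to which every array was scaled, was 877 to 2262 in Peyer, 275 to 1098 in Spleen, 681 to 1001 in Jejunum and 424 to 526 in Liver. Levels below are log2 signal minus that percentile, and 6 arrays a group limit the precision.

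Defining markers were checked in each tissue as the mean log2 level of a list. Hepatocyte markers stood at 8.61 to 8.87 in Liver, against -4.43 to 0.04 in Spleen. B cell markers stood at 1.60 to 2.08 in 5 Peyer arrays but at -1.80 in the Peyer array of animal 71, against 0.34 to 1.05 in Spleen, -5.64 to -4.36 in Jejunum and -4.90 to -4.43 in Liver. In B cell markers the Peyer array of animal 71 therefore stood apart from its group. Call counts for Peyer minus Jejunum and for lymphoid minus non-lymphoid are given with and without it. Values of single genes include it unless animal 71 is said to be left out. Enterocyte markers were high in Peyer (6.03 to 7.55) and in Jejunum (7.37 to 7.67), against 0.29 to 0.97 in Liver. In Spleen they stood at 0.18 on the array of animal 73, against -4.21 to -3.32 on the other Spleen arrays. Smooth muscle markers varied widely within Peyer, from 1.54 in animal 69 and 1.73 in animal 70 to 5.58 in animal 75, against 3.95 to 5.59 in Jejunum.

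Most kept members were measured in every tissue. Of the 128, 101 had signal well above background on each of the 24 arrays, and all 6 arrays of a tissue did for 119 in Peyer and 115 in Spleen, with 115 in Jejunum and 104 in Liver. The 27 genes left out comprised 13 KRAB, 12 other and 2 SCAN genes, and 6 of them, ZNF444, ZNF484, ZNF526, ZNF527, ZNF575 and ZNF654, were well above background on no array. Nearest to the limit were ZNF774, left out although it was well above background on 16 arrays, and ZNF366, kept with 8 arrays of which 6 were those of Spleen. Only Liver had kept members that were well above background on none of its arrays: ZNF264, ZNF366 and ZNF711. RefSeq held a pig gene of the same symbol for 123 of the 155 names.

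By counts and medians, transcript levels of ZNF genes differed less between tissues than those of the array as a whole. With limma and Benjamini-Hochberg adjustment over 42650 probes, a gene was called where the adjusted p was under 0.05 and the log2 difference was at least 1, that is 2-fold. Of the 128 ZNF genes, 55 (43.0%) were called in at least 1 of the 6 pairs of tissues, against 61.2% of the 7675 named genes tested. The median range of the 4 tissue means was 0.89 for ZNF genes and 1.27 for all genes, in log2 units. A range over 2 was reached by 12 ZNF genes (9.38%), against 30.9% of all genes. Among genes well above background on all 24 arrays the shares called in any pair were 40.6% for ZNF genes and 56.4% for all genes. ZNF genes were also dimmer than the array as a whole. Their median level minus that of all genes averaged -1.39 over the Peyer arrays and -1.05 over the Spleen arrays. It averaged -1.43 in Jejunum and -1.72 in Liver. Genes of equal level were not compared, so the part of signal level in these shares was not tested.

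KRAB genes and the other members were also counted apart. Of the 48 KRAB genes, 13 (27.1%) were called in any pair, with a median range of 0.76, whereas 42 of the 80 genes without KRAB (52.5%) were, with a median range of 1.07. KRAB genes were the dimmer class, with median levels that averaged from -2.31 in Liver to -1.61 in Spleen. For the genes without KRAB they averaged from -0.73 in Liver to -0.53 in Jejunum, and levels were not matched. Large differences were scarce: 3 ZNF genes (2.34%) reached a log2 difference of 2 between Spleen and Liver, against 19.9% of all genes. The 5 members with the smallest range were ZNF143, ZNF268, ZNF3, ZNF687 and ZNF777. ZNF143, an activator that binds promoters and chromatin loop anchors, had -4.56 ± 0.31 in Peyer and -4.53 ± 0.28 in Spleen, with -4.53 ± 0.20 in Jejunum and -4.54 ± 0.45 in Liver (SD, n = 6 each), a range of 0.03. Its levels lay near the lowest signal well above background, which averaged -4.97 in Liver, and this limits the reading of so small a range. ZNF687, which joins a complex with ZMYND8, had -1.27 ± 0.22 in Peyer and -1.01 ± 0.38 in Spleen, with -1.16 ± 0.15 in Jejunum and -1.09 ± 0.22 in Liver, and its groups overlapped. ZNF268, ZNF3 and ZNF777, all KRAB genes, had ranges of 0.07, 0.25 and 0.27.

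**Figure D1:**
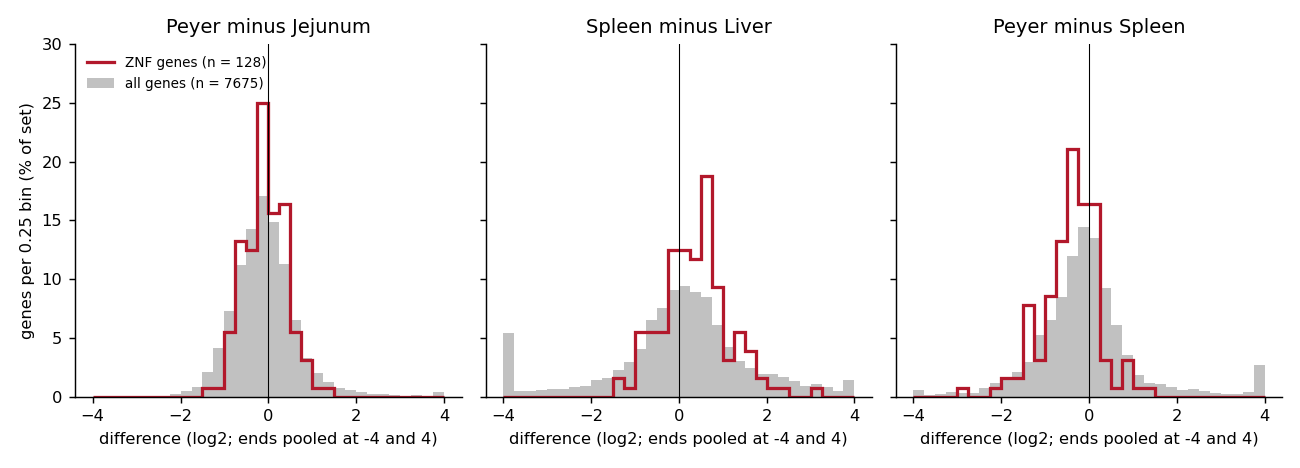
Histograms of the log2 difference per gene for Peyer minus Jejunum, Spleen minus Liver and Peyer minus Spleen, as percent of genes, for the 128 ZNF genes and all 7675 named genes tested. ZNF genes gathered near 0, and within a log2 difference of 1 lay 124 of 128 for Peyer minus Jejunum, with 104 in the panel of Spleen minus Liver.

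The family as a whole stood higher in Spleen than in the other tissues. Each level was set against its gene's mean over the 4 tissues, and the median of these deviations over the 128 genes was -0.21 to 0.02 on the Peyer arrays, 0.22 to 0.31 on the Spleen arrays, -0.15 to -0.02 on the Jejunum arrays and -0.21 to 0.05 on the Liver arrays. All 6 Spleen arrays lay above every array of the other tissues. Over all named genes the same median on Spleen arrays was 0.03 to 0.14. Spleen held the highest mean for 63 of 128 ZNF genes (49.2%), against 32.0% of all genes. Peyer held the lowest mean for 48 (37.5%), against 26.1%. The place of Peyer depends on the scaling. After median centring the ZNF medians were 0.11 for Peyer minus Jejunum, 0.10 for Peyer minus Liver and -0.05 for Peyer minus Spleen. As reported they were -0.07, -0.05 and -0.31. The counts of highest and lowest means were not repeated under other scalings. Among KRAB genes the highest mean was in Spleen for 30 of 48 (62.5%).

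**Figure D2:**
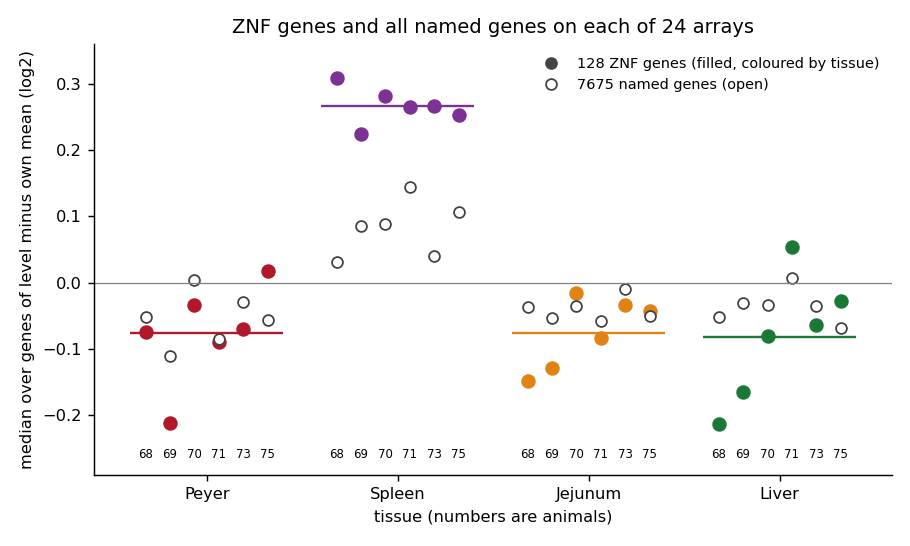
Median deviation from the gene's mean over the 4 tissues (log2), one point per array, for the 128 ZNF genes and for all named genes tested, by tissue. The Spleen arrays lay at 0.22 to 0.31 for ZNF genes, above all arrays of the other tissues.

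The shift was present in every animal. Within each pig the median Spleen minus Liver difference over ZNF genes was 0.33 to 0.45, and its gap to the median of all genes was 0.16 to 0.35, positive in 6 of 6 pigs. The median Peyer minus Spleen difference was -0.40 to -0.22, with a gap of -0.33 to -0.14, negative in 6 of 6 pigs. Spleen minus Jejunum gave 0.23 to 0.53. These comparisons share the Spleen arrays, and the last 2 also cross the sets of slides. Peyer minus Jejunum gave medians of -0.21 to 0.07, on both sides of 0. The size of the shift moved with the processing. The gap between ZNF genes and all genes for Spleen minus Liver was 0.26 as reported, 0.20 after quantile normalization and 0.10 after normexp background correction. Median centring takes a constant from each array, so it cannot change this gap and does not test it.

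Spleen against Liver, within slides, called 24 ZNF genes, 21 higher and 3 lower in Spleen. Over all genes 39.6% were called, 21.3% higher and 18.3% lower. Within the slides of animals 68 and 69, 70 and 71, and 73 and 75 alone the ZNF counts were 27, 18 and 19. Over all slides the count was 10 after normexp and 11 in the authors' deposited values. Normexp here adds an offset of 50 to each signal, which by arithmetic shrinks log2 differences between dim levels. For 3 of the 24, ZNF264, ZNF366 and ZNF711, no Liver array was well above background. The ZNF shares were 16.4% higher and 2.34% lower, so that the members departed from the array mainly by having few genes lower in Spleen. The median difference was 0.38, against 0.12 for all genes, and 88 of 128 differences (68.8%) were positive, against 54.4% over all genes. Markers of other cells moved with this comparison: 4 of 4 B cell genes tested, 7 of 8 T and NK cell genes, 6 of 7 genes of dividing cells and 7 of 7 smooth muscle genes were higher in Spleen, and 8 of 8 hepatocyte genes were lower. Their mean levels did not overlap between the tissues: T and NK cell genes stood at 1.25 to 2.29 in Spleen, against -2.07 to -0.60 in Liver, and smooth muscle genes at 3.72 to 4.66 in Spleen, against -0.61 to 0.37 in Liver. Their part in the result was not tested.

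The largest difference belonged to ZNF827, which in human cells recruits the NuRD chromatin remodeller to telomeres. Its lowest, median and highest levels were -0.53, -0.39 and 0.19 in Peyer, -1.74, -1.42 and -0.82 in Spleen, -0.16, -0.06 and 0.24 in Jejunum and -5.55, -4.38 and -4.07 in Liver. Liver lay below the other 3 tissues with no overlap, and 4 of its 6 arrays were well above background. Spleen minus Liver was 3.24 ± 0.20 (adjusted p = 1.3e-12), or 9.43-fold. ZNF423, a partner of early B cell factors and Smad proteins, had -2.83, -2.02 and -1.86 in Peyer, -1.85, -1.17 and -0.63 in Spleen, -2.31, -2.09 and -1.64 in Jejunum and -4.05, -3.41 and -3.14 in Liver. Its Spleen and Liver arrays did not overlap, and Spleen minus Liver was 2.26 ± 0.20 (adjusted p = 5.1e-10). ZNF211, a KRAB gene, had -1.07, -0.71 and -0.50 in Peyer, -1.19, -0.81 and -0.33 in Spleen, -1.79, -1.55 and -1.39 in Jejunum and -2.97, -2.87 and -2.60 in Liver. Its levels in Peyer and Spleen overlapped one another and lay above those in Liver, and Spleen minus Liver was 2.06 ± 0.13 (adjusted p = 1.1e-12).

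ZNF217, a repressor amplified in human breast tumours, had -1.75, 0.07 and 0.26 in Peyer, 0.54, 0.68 and 0.86 in Spleen, -0.29, -0.20 and 0.08 in Jejunum and -1.34, -0.96 and -0.68 in Liver, and Spleen minus Liver was 1.70 ± 0.23 (adjusted p = 7.3e-07). The Peyer array of animal 69 was lowest of its group for each of the 3 probes of this gene. ZNF184, a KRAB gene, had -0.27, 0.11 and 0.43 in Peyer, -0.44, -0.06 and 0.24 in Spleen, -0.39, -0.14 and 0.23 in Jejunum and -2.37, -1.65 and -1.22 in Liver, and Spleen minus Liver was 1.61 ± 0.17 (adjusted p = 9.9e-09). Peyer, Spleen and Jejunum overlapped, and Liver lay below them by this probe. ZNF710 differed by 1.67 ± 0.32 (adjusted p = 5.8e-05), with 2 of 6 Liver arrays well above background, but by 0.34 (adjusted p = 0.18) after normexp. Smaller differences past the test belonged to the KRAB genes ZNF547 (1.42), ZNF443 (1.29) and ZNF684 (1.01), and to ZNF238 (1.35), ZNF362 (1.32), ZNF512 (1.32), ZNF292 (1.22) and ZNF407 (1.13). Each of these 8 was higher in Spleen in 6 of 6 pigs. ZNF238 is the older name of ZBTB18, a BTB repressor.

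The 3 genes lower in Spleen carried no KRAB domain. ZNF768, which binds MIR repeats in human cells, had 1.81, 1.99 and 2.91 in Peyer, 1.66, 1.84 and 2.23 in Spleen, 2.56, 2.72 and 2.83 in Jejunum and 3.05, 3.22 and 3.54 in Liver. Every Spleen array lay below every Liver array, and Spleen minus Liver was -1.37 ± 0.15 (adjusted p = 2.1e-08). ZNF219, a partner of SOX9 in mouse chondrocytes, differed by -1.34 ± 0.17 (adjusted p = 1.7e-07), and its size was under 1 after quantile normalization (-0.91) and in the authors' deposited values (-0.97). ZNF281, a regulator of pluripotency and epithelial-mesenchymal transition, differed by -1.05 ± 0.13 (adjusted p = 2.4e-07), but by -1.0 without animal 68, just under the size required.

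**Figure D3:**
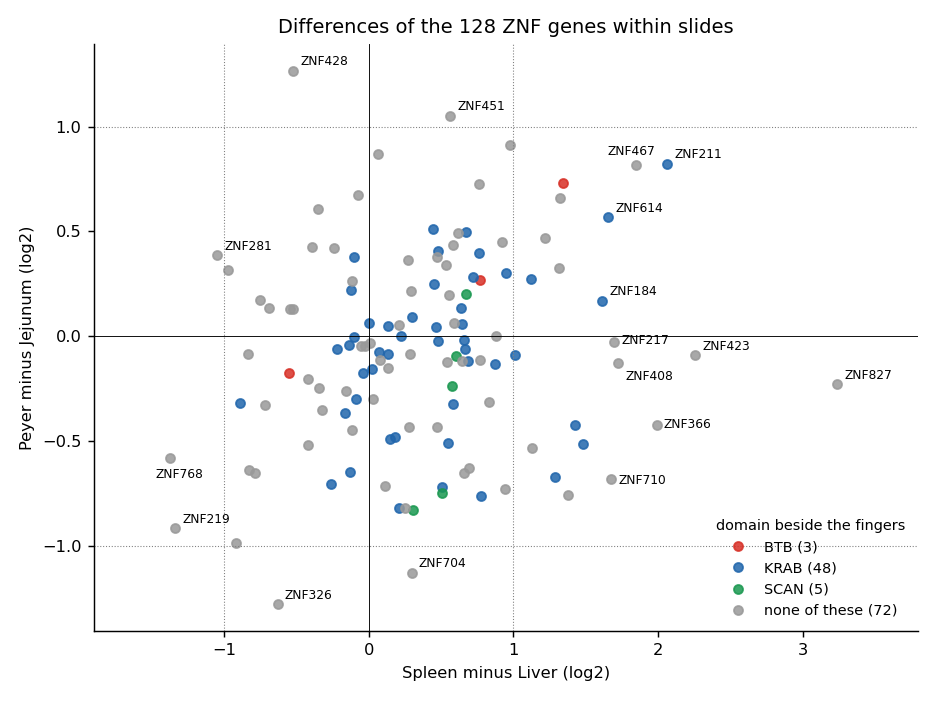
Each ZNF gene by its log2 difference Spleen minus Liver (x axis) and Peyer minus Jejunum (y axis), both within slides, coloured by domain class. Points spread widely to the right along the x axis, led by ZNF827 at 3.24, and 124 of 128 lay within 1 of 0 on the y axis. ZNF264, ZNF366 and ZNF711 are drawn at measured values although no Liver array was well above background.

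Peyer against Jejunum, also within slides, called 4 ZNF genes, 2 higher and 2 lower in Peyer. This was 3.12% of the members, against 13.3% of all genes (6.03% higher and 7.28% lower). Within the slides of animals 68 and 69, 70 and 71, and 73 and 75 alone the counts were 2, 0 and 7, and the last of these slides was scanned on another day. Normexp and the authors' deposited values gave 2 calls each, where 9.46% and 9.78% of all genes were called. Without the Peyer array of animal 71 the count over all slides was 7 (5.47%, against 18.7% of all genes). The medians were -0.07 for ZNF genes and -0.11 for all genes. At any size, 46 members (35.9%) had an adjusted p under 0.05, 24 higher and 22 lower, against 45.5% of all genes. Among KRAB genes limma called 0 of 48, with 8 higher and 11 lower at an unadjusted p under 0.05. Here 4 of 4 B cell genes and 4 of 7 genes of dividing cells were higher in Peyer, and 6 of 7 smooth muscle genes and 2 of 7 enterocyte genes were lower. The part of these cells in the ZNF differences was not tested.

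ZNF428 had lowest, median and highest levels of 3.0, 4.01 and 4.14 in Peyer, 4.04, 4.08 and 4.25 in Spleen, 1.09, 2.69 and 2.96 in Jejunum and 4.52, 4.64 and 4.85 in Liver. Peyer minus Jejunum was 1.27 ± 0.24 (adjusted p = 0.00038), and the 2 groups did not overlap. ZNF451, a SUMO ligase, had -2.80, -2.13 and -1.56 in Peyer, -2.52, -2.30 and -2.14 in Spleen, -3.85, -3.11 and -2.86 in Jejunum and -3.10, -2.91 and -2.49 in Liver. It differed by 1.05 ± 0.18 (adjusted p = 0.00014) but by 0.90 without animal 73, its other 3 probes gave 0.24 to 0.32, and the mean over its probes was not called (0.48, adjusted p = 0.054). ZNF326, part of the DBIRD complex that links elongation to splicing in human cells, had -1.79, -0.79 and 0.11 in Peyer, -1.34, -0.77 and 0.01 in Spleen, 0.00, 0.32 and 0.86 in Jejunum and -0.26, -0.04 and 0.01 in Liver. It was lower in Peyer in 6 of 6 pigs, and Peyer minus Jejunum was -1.27 ± 0.26 (adjusted p = 0.00075). ZNF704 differed by -1.12 ± 0.40 (adjusted p = 0.027), and its adjusted p was 0.063 without animal 68, 0.095 without animal 69, 0.12 without animal 70 and 0.051 without animal 73.

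The mean of Peyer and Spleen against the mean of Jejunum and Liver is balanced on every slide. It called 7 ZNF genes, 6 higher and 1 lower in the lymphoid tissues, against 25.5% of all genes (12% higher and 13.5% lower). Without the Peyer array of animal 71 the count was 11, 7 higher and 4 lower, against 26.8% of all genes. It was 3 both after normexp and in the authors' deposited values, against 18.7% and 20.2% of all genes. The differences were 1.5 ± 0.14 (adjusted p = 3.3e-09) for ZNF827, 1.44 ± 0.09 (adjusted p = 2.5e-12) for ZNF211 and 1.33 ± 0.08 (adjusted p = 7.9e-13) for ZNF467. They were 1.11 ± 0.13 (adjusted p = 5.2e-08) for ZNF614, 1.08 ± 0.14 (adjusted p = 3.8e-07) for ZNF423 and 1.04 ± 0.09 (adjusted p = 6.9e-10) for ZNF238. ZNF219 was lower, with a difference of -1.13 ± 0.12 (adjusted p = 1.3e-08). The size of the difference fell under 1 for ZNF614 (0.98) and ZNF423 (0.99) without animal 68, and for ZNF238 (0.99) without animal 73. After normexp it was 0.66 for ZNF827, 0.56 for ZNF423 and 0.47 for ZNF614. Since Peyer and Spleen enter together, the Peyer and Jejunum levels matter as much: ZNF827 differed by -0.23 ± 0.20 between Peyer and Jejunum (adjusted p = 0.38), whereas ZNF211 differed by 0.82 ± 0.13 (adjusted p = 7e-05) and ZNF467 by 0.81 ± 0.11 (adjusted p = 1.8e-05), both higher in Peyer.

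The difference between Peyer and Jejunum was then set against that between Spleen and Liver in the same limma fit, as the difference of the differences. It was called for 32 ZNF genes, 3 above and 29 below 0, against 35.6% of all genes (15.2% and 20.4%). The split depended on the scaling: after median centring it was 10 above and 16 below, where the median of all genes moved to 0.14, against -0.15 as reported. The count was 11 after normexp and 12 in the authors' deposited values, against 27.2% and 29.4% of all genes. ZNF827 had the smallest adjusted p, with a value of -3.46 ± 0.29 (adjusted p = 5.9e-10). The value for ZNF281 was 1.44 ± 0.19 (adjusted p = 8.8e-07).

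Tissue-restricted members were sought as genes called over each of the other 3 tissues. Spleen had 6 (4.69%, against 5.95% of all genes) and Liver had 1 (0.781%, against 10.6%). limma gave 0 for Peyer, where 0.573% of all genes were called, and 0 members had an unadjusted p under 0.05 in all 3 pairs. It gave 0 for Jejunum, against 2.54% of all genes, with 5 members at an unadjusted p under 0.05. Each of these counts includes pairs measured across the sets of slides. The Spleen count was 1 after normexp and 0 in the authors' deposited values, 4 to 8 when an animal was left out, and 2 among genes well above background on every array. The Liver count was 0 both after normexp and in the authors' deposited values, and also without animal 68. The authors' values hold little difference between the sets of slides, with a median size of 0.0584 over all genes, against 0.489 in the scanner values. Counts of 0 from them therefore say little about pairs across these sets. The same limit applies to single-gene differences across slides given from those values below.

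The 6 Spleen members were ZNF366, ZNF467, ZNF408, ZNF264, ZNF140 and ZNF614. ZNF366, known as DC-SCRIPT in human dendritic cells, had -7.24, -6.65 and -4.93 in Peyer, -4.24, -3.82 and -3.02 in Spleen, -7.82, -5.90 and -5.28 in Jejunum and -6.10, -5.68 and -5.15 in Liver. All 6 Spleen arrays were well above background, with 1 of Peyer, 1 of Jejunum and 0 of Liver, so that the gene was kept through Spleen alone and the levels outside Spleen were mostly bounds. With the lowest measurable signal in place of the dim levels, it was at least 2.51-fold higher in Spleen than in Liver. The adjusted p of 7.1e-05 from limma belongs to the measured difference and not to this bound. After normexp, whose offset shrinks differences between levels as dim as these, Spleen minus Liver was 0.21 (adjusted p = 0.42 in limma) and no longer called. ZNF467, which in mouse marrow stroma favours fat over bone cells, had 0.83, 1.17 and 1.4 in Peyer, 2.75, 2.77 and 3.18 in Spleen, 0.10, 0.30 and 0.64 in Jejunum and 0.92, 0.98 and 1.17 in Liver. Its 6 Spleen arrays lay above all 18 others, with Spleen minus Liver at 1.85 ± 0.11 (adjusted p = 5.4e-13) and Spleen minus Jejunum at 2.52 ± 0.11 (adjusted p = 4.1e-15).

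ZNF408, linked in people to retinal vessel disease, had -6.14, -5.49 and -5.06 in Peyer, -4.64, -3.79 and -2.99 in Spleen, -6.11, -5.45 and -4.17 in Jejunum and -6.60, -5.62 and -4.49 in Liver, and Spleen minus Liver was 1.72 ± 0.35 (adjusted p = 0.00012). After normexp it was 0.23 (adjusted p = 0.25). Signal was well above background on 6 Peyer, 6 Spleen, 3 Jejunum and 1 Liver arrays. The other 3 were KRAB genes. ZNF614 had -3.85, -3.02 and -2.78 in Peyer, -2.48, -2.21 and -1.47 in Spleen, -4.0, -3.74 and -3.38 in Jejunum and -4.0, -3.75 and -3.36 in Liver, with Spleen minus Liver at 1.65 ± 0.18 (adjusted p = 1.8e-08), and at 0.78 after normexp. ZNF264 was not well above background on any Liver array and was at least 1.77-fold higher in Spleen, a bound under the 2-fold size required. The adjusted p of 0.0012 from limma belongs to its measured difference. The means were -5.96 ± 0.71 in Peyer and -4.14 ± 0.77 in Spleen. They were -5.44 ± 0.54 in Jejunum and -5.63 ± 0.69 in Liver (SD, n = 6 each). ZNF140 had means of -4.91 ± 0.71 in Peyer and -3.88 ± 0.48 in Spleen, with -5.19 ± 0.16 in Jejunum and -5.00 ± 0.47 in Liver, and Spleen minus Liver was 1.12 ± 0.27 (adjusted p = 0.00091). Of the 6, only ZNF467 and ZNF614 were well above background on all 24 arrays.

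ZNF281 was the single member called over the other tissues in Liver. It had -2.37, -1.82 and -1.51 in Peyer, -1.65, -1.27 and -1.11 in Spleen, -2.45, -2.31 and -2.16 in Jejunum and -0.38, -0.28 and -0.14 in Liver, with no Liver array inside the range of another tissue. Jejunum minus Liver was -2.04 ± 0.13 (adjusted p = 3e-12) and Peyer minus Liver was -1.65 ± 0.13 (adjusted p = 1.4e-10), with -0.75 and -0.36 in the authors' deposited values. Genes called below each other tissue numbered 5 in Liver (3.91%, against 8.74% of all genes), namely ZNF827, ZNF423, ZNF184, ZNF211 and ZNF711. ZNF711, an X-linked partner of the demethylase PHF8, was well above background on 6 Peyer, 4 Spleen, 6 Jejunum and 0 Liver arrays, and its place among the 5 rests on Liver levels that were not measured. It was at least 1.12-fold higher in Jejunum than in Liver. The adjusted p of 3.7e-07 from limma belongs to the measured difference and not to this bound. Its means of -5.56 in Peyer and -5.49 in Spleen lay under the lowest signal well above background in Liver, which averaged -4.97, so no fold is given for them. ZNF184 was below Peyer in Liver by its probe of highest mean, with Peyer minus Liver at 1.78 (adjusted p = 2.1e-09), but its other probe gave 0.21 (adjusted p = 0.45) and overlapping groups. ZNF827 reached 23.5-fold over Liver in Jejunum, a log2 difference of 4.56 ± 0.20 (adjusted p = 2.5e-15), but that difference was 0.99 in the authors' deposited values.

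1 member was called below each other tissue in Spleen (5.22% of all genes) and 1 in Jejunum (1.13%), while 0 were in Peyer (1.12%), where limma gave 11 members at an unadjusted p under 0.05. ZNF219 had 3.70, 3.91 and 4.91 in Peyer, 2.31, 2.86 and 3.02 in Spleen, 4.64, 5.01 and 5.09 in Jejunum and 3.94, 4.11 and 4.22 in Liver. Spleen lay below every other array, and the Peyer array of animal 71 lay above the other 5 of its group, at 4.91. Spleen minus Jejunum was -2.21 ± 0.17 (adjusted p = 6e-11). ZNF428 was lowest in Jejunum, with Jejunum minus Liver at -2.17 ± 0.24 (adjusted p = 3.6e-08), and at -0.57 in the authors' deposited values.

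**Figure D4:**
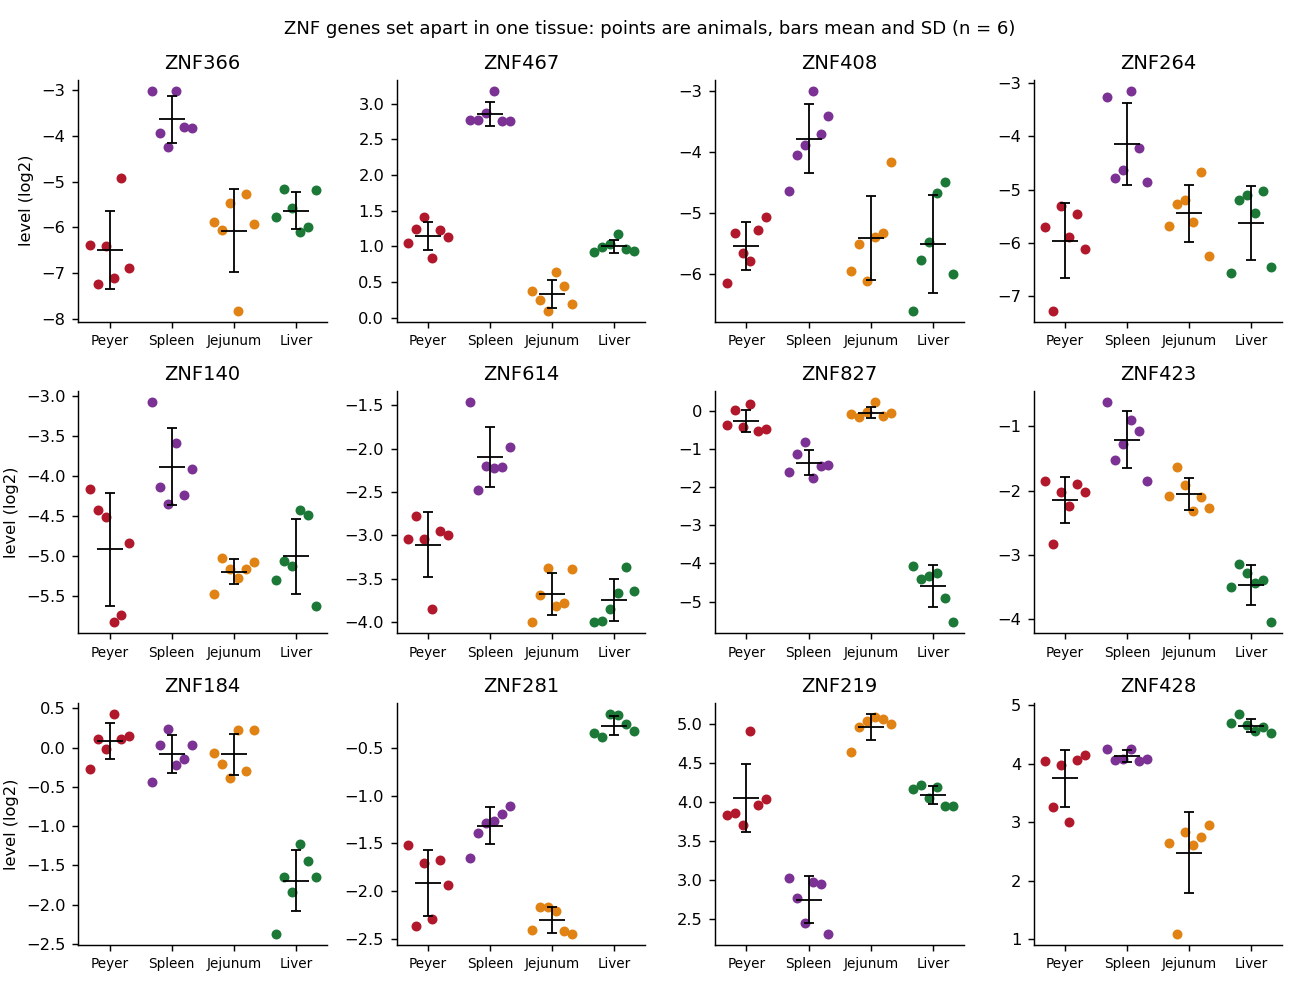
Levels on each of the 24 arrays (log2 signal minus the 75th percentile) for 12 members by tissue, with the mean and SD (n = 6) as bars. ZNF366, ZNF467, ZNF408, ZNF264, ZNF140 and ZNF614 peak in Spleen, ZNF827, ZNF423 and ZNF184 are lowest in Liver, ZNF281 is highest in Liver, ZNF219 is lowest in Spleen and ZNF428 is lowest in Jejunum.

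The 4 comparisons across the sets of slides cannot be told apart from the slides and are given as values. Peyer minus Spleen called 2 higher and 20 lower in Peyer (10.5% and 15.3% of all genes, 25.8% in all), with a median of -0.31 against -0.11 over all genes. After median centring the split was 6 higher and 15 lower. Jejunum minus Liver called 10 higher and 9 lower (17.5% and 16.3%, 33.8% in all). Peyer minus Liver called 12 higher and 11 lower (19.5% and 21.5%, 41.0% in all), a split that became 14 and 4 after median centring and 6 and 26 after normexp. Spleen minus Jejunum called 13 higher and 6 lower (15.5% and 15.2%, 30.7% in all), with 6 and 5 after normexp. In the authors' deposited values the difference between the sets of slides, the mean of Peyer and Jejunum minus that of Spleen and Liver, had a median size of 0.0584 over all genes, against 0.489 in the scanner values. Those 4 comparisons called 0 to 4 ZNF genes each in the authors' values (0% to 3.17%), against 11.7% to 20.6% of all genes.

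ZNF365, which protects genome stability in human cells, was higher on the arrays of Spleen and Liver than on those of Peyer and Jejunum. It had -6.67, -5.96 and -4.41 in Peyer, -4.82, -3.60 and -3.11 in Spleen, -6.66, -5.49 and -4.90 in Jejunum and -4.37, -3.81 and -3.17 in Liver. The Peyer array of animal 75 reached the range of Spleen, and Jejunum and Liver did not overlap. Peyer minus Spleen was -2.08 ± 0.33 (adjusted p = 1.7e-05) and Jejunum minus Liver -1.75 ± 0.33 (adjusted p = 8.4e-05), while Jejunum minus Liver was 0.03 in the authors' values. ZNF652, a repressor that binds CBFA2T3, differed by -1.52 ± 0.22 (adjusted p = 3.5e-06) between Peyer and Spleen and by -1.41 ± 0.22 (adjusted p = 4.7e-06) between Peyer and Liver, where the authors' deposited values gave -0.23 (adjusted p = 0.15). ZNF322A and ZNF322B, near-identical copies that the array cannot be assumed to separate, differed by 2.24 ± 0.14 (adjusted p = 7e-13) and 2.19 ± 0.12 (adjusted p = 1.5e-13) between Jejunum and Liver, and by 0.77 and 0.74 in the authors' deposited values. Between Peyer and Spleen ZNF827 differed by 1.09 ± 0.20 (adjusted p = 9.9e-05), by 0.92 without animal 71 and by -1.02 in the authors' values.

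Domain classes were compared by counts. Between Spleen and Liver, 8 of 48 KRAB genes were called higher and 0 lower, with a median of 0.47 and 37 positive differences. At any size, 25 had an adjusted p under 0.05 and were higher in Spleen, and 0 were lower, also at an unadjusted p under 0.05 in limma. Over all genes 70.7% had an adjusted p under 0.05 in either direction. The 80 genes without KRAB gave 13 higher and 3 lower, with a median of 0.29. The 5 SCAN genes, ZNF24, ZNF174, ZNF187, ZNF323 and ZNF449, all had positive differences, of 0.31 to 0.67, and none was called. Of the 3 BTB genes, ZNF238 was called higher and ZNF131 (0.77) and ZNF295 (-0.55) were not called. Between Peyer and Spleen, 9 KRAB genes (18.8%) were called lower in Peyer and 0 higher, with a median of -0.36. Over all genes 15.3% were lower and 10.5% higher, with a median of -0.11, so the lower share was near that of the array. The choice of classes rested on human proteins, and no pig protein sequence was used.

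Genes of the KRAB corepressor machinery and of heterochromatin formed a list of 28, of which 20 were tested. Between Spleen and Liver 5 (25%) were called higher, near the 21.3% of all genes, and 0 lower, against 18.3%. The median was 0.65, against 0.12 over all genes. The 5 were UHRF1 (2.67), a reader of hemimethylated DNA, the helicase HELLS (1.81), the DNA methyltransferases DNMT1 (1.63) and DNMT3A (1.52), and the histone methyltransferase EHMT2 (1.1). UHRF1, HELLS and DNMT1 are known to rise in dividing cells, whose markers stood at 0.59 to 1.49 in Spleen, against -1.66 to 0.34 in Liver. The part of these cells in the differences of the list was not tested. TRIM28 differed by 0.70 (adjusted p = 1.9e-05) and SETDB1 by 0.55 (adjusted p = 6.9e-06), both under the size required. Between Peyer and Jejunum 2 of 20 (10%, against 6.03% of all genes) were called higher, HELLS (1.89) and DNMT1 (1.68), and 0 lower, while TRIM28 differed by 0.52 (adjusted p = 0.0018).

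Other C2H2 families were counted in the same way between Spleen and Liver. ZBTB genes gave 5 higher and 1 lower of 23, with a median of 0.67. KLF genes gave 5 higher and 2 lower of 16, ZFP genes 2 higher and 0 lower of 7, ZSCAN genes 1 higher and 1 lower of 3, ZKSCAN genes 1 higher and 0 lower of 2 and IKZF genes 1 higher and 0 lower of 2. Over all genes 21.3% were called higher and 18.3% lower.

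Genes read by several probes showed how far a pattern depends on the probe. Among the 128 members 32 had more than 1 tested probe, 76 probes in all. For Spleen minus Liver the probes of a gene differed by a median of 0.22, and 0 genes had probes called in opposite directions. In 4 genes the probes lay over 1 apart. The genes named here were chosen after their values were seen. ZNF385D, a relative of the p53 partner ZNF385A, was read by 2 probes with unlike sequences. Its probe of highest mean gave -0.34 for Spleen minus Liver (adjusted p = 0.14) and -0.24 for Peyer minus Jejunum (adjusted p = 0.34). The other probe was well above background on 3 Peyer, 6 Spleen, 6 Jejunum and 0 Liver arrays. By that probe the level was at least 3.18-fold higher in Spleen than in Liver. The adjusted p of 4.2e-05 from limma belongs to the measured difference and not to this bound. Peyer, well above background on 3 arrays only, averaged -6.58 ± 2.34, against -3.96 ± 0.72 in Jejunum (SD, n = 6 each).

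ZNF642, a KRAB gene now named ZFP69, gave 0.72 for Spleen minus Liver by its probe of highest mean (adjusted p = 0.00086) and -1.67 by the other (adjusted p = 8.5e-09). ZNF414 gave -1.91 for Spleen minus Jejunum (adjusted p = 3.4e-06) and 0.38 by its other probe (adjusted p = 0.011), so its direction is uncertain. ZNF827 gave 3.24 for Spleen minus Liver. Its other probe, well above background on no Liver array, gave 1.23 and was not called (adjusted p = 0.14). By that probe the Spleen arrays (-5.87 to -5.24) and the Liver arrays (-7.27 to -6.03) did not overlap. Its Peyer array of animal 70 stood at 0.43, against -6.92 to -5.0 on the other Peyer arrays. The spread behind the adjusted p is pooled over all tissues, and the part of that array in it was not tested. For Spleen minus Liver, probes gave close values for ZNF217 (1.70, 1.84 and 1.55), ZNF184 (1.61 and 1.45), ZNF768 (-1.37 and -1.22) and ZNF292 (1.22 and 1.08). Other genes share sequence with members: 14 ZNF probes had a run of 20 bases in common with a probe of another name, and 9 of them represented kept members. Which transcripts such probes bind was not tested.

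**Figure D5:**
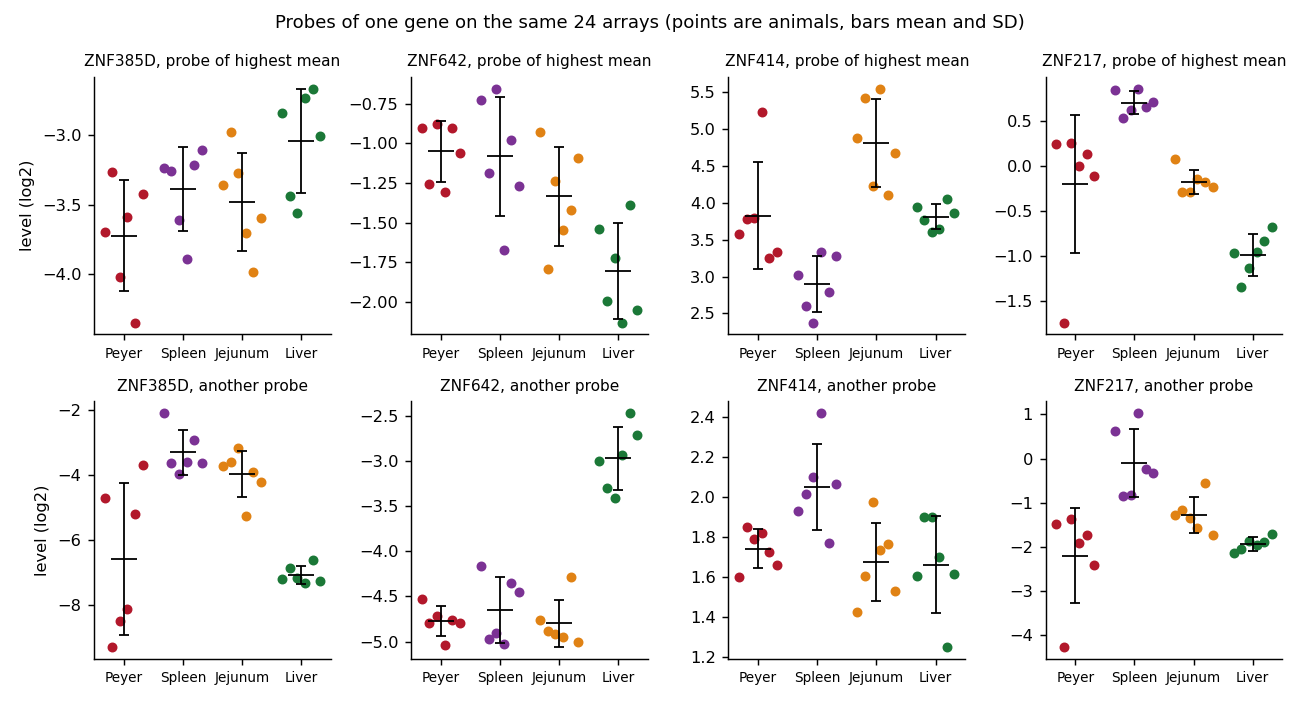
Levels on the 24 arrays by tissue (log2 signal minus the 75th percentile) for ZNF385D, ZNF642, ZNF414 and ZNF217, with the probe of highest mean in the upper row and another probe of the same gene in the lower row. The tissue patterns differ between the rows for the first 3 genes and run alike for ZNF217, with Spleen minus Liver at 1.70 above.

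ZNF genes often lie in clusters that arose by duplication. RefSeq placed 10 pairs of kept members next to one another with at most 2 coding genes between them, and their values are given side by side. In the run ZNF34, ZNF7 and ZNF251, Spleen minus Liver was 0.67, 0.45 and 0.30, with adjusted p-values of 0.00013, 0.00024 and 0.017, all under the size required. In the run ZNF777, ZNF467 and ZNF862 it was 0.13, 1.85 and -0.14, so that the Spleen member ZNF467 stood between a pair of genes that were not called. Neighbours also differed in sign for ZNF32 (-0.78) and ZNF239 (0.55), for ZNF146 (-0.98) and ZNF565 (0.18), and for ZNF140 (1.12) and ZNF605 (-0.12).

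Since every pig gave all 4 tissues, levels that followed the animal could be tested. limma's F-test of animal beside tissue passed an adjusted p of 0.05 for 7 of 128 members (5.47%, against 4.33% of all genes), and 4 after normexp. The 7 were ZNF839, ZNF148, ZNF672, ZNF622, ZNF335, ZNF3 and ZNF642. ZNF839 had the smallest adjusted p (4.9e-07). Animal 68 had levels of -6.92 to -5.91 over its 4 tissues, where 1 array was well above background, and the other 5 animals had -4.52 to -2.73. Animal 71 came next, at -4.52 to -4.37. ZNF148, known as ZBP-89 and a binder of GC-rich promoters, had means over the 4 tissues of 0.53 in animal 68, 0.37 in animal 71 and 0.44 in animal 75, and of 1.1 in animal 69, 1.1 in animal 70 and 1.25 in animal 73 (adjusted p = 0.00071). ZNF622, which assembles the large ribosomal subunit, had means of 0.36 in animal 73 to 1.05 in animal 69 (adjusted p = 0.0069). ZNF335, a subunit of a histone H3 lysine 4 methyltransferase complex, had means of -1.61 and -1.60 in animals 69 and 73 and of -1.03 to -0.92 in the other 4 (adjusted p = 0.032).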

How the data were processed

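Cy3-labelled cRNA made from 200 ng of total RNA of each sample (RIN over 7.5) was hybridised to 1 array per sample, 24 in all, per the labels' protocols. The scanner intensity values were deposited by the authors and produced with Agilent Feature Extraction 10.10.1.1, per the submitters' processing notes and the file headers; they are background-subtracted intensities (gProcessedSignal) for 61625 spots, of which 1319 were controls. The authors also deposited a table of log2 values for 44600 probes with identical sorted values on every array (median 8.24); limma is named in the submitters' processing notes, and its centring is not stated in any source used. The members, gene lists and domain classes were chosen with earlier results of these data known.

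From the scanner files, spots of a probe were averaged, 136 probes with outlier flags and all controls were left out, and log2 signal minus the array's 75th percentile was taken for 60305 probes. The 42650 probes with signal well above background on each of the 6 arrays of 1 tissue or more were fitted with limma 3.58.1 in R 4.3.3 (lmFit and eBayes, tissue only, 20 residual degrees of freedom, prior 2.97, Benjamini-Hochberg over all of them). A call required a log2 difference of 1 or more in size as well as an adjusted p below 0.05. Errors after a difference are standard errors, and those after a mean are SDs over 6 pigs. The p-values measure the spread between arrays within a tissue, pooled over the 4 tissues. All 24 arrays were treated as independent, although each pig gave 4 of them. No spot was saturated. Where no array of a group had a probe well above background, the fold is a bound: the bright group's mean over the dim group's mean of, per array, the higher of the lowest signal well above background and the probe's own signal. An adjusted p given with a bound is that of the measured difference, and the bound was not tested. All genes means the 7675 named genes tested of 9011. On simulated arrays for Peyer minus Jejunum (42650 probes), 62 of 100 differences of log2 1 passed limma's adjusted p of 0.05 in the right direction. Of 100 differences of log2 2, 92 did, and there were 7 false calls. The simulation changed 100 probes of each size, whereas 45.5% of all genes passed that adjusted p in the data. Its noise was independent between arrays and the size rule was not applied, so these rates do not describe the calls above.

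The genes named are the highest and lowest called members of each comparison (10 each within slides, 6 for lymphoid minus non-lymphoid, 3 across slides), up to 8 called over and 4 called below each other tissue, the 5 with the smallest range, the 5 with the smallest adjusted p for animal and for the difference of differences, members whose probes were called in opposite directions or that had signal in 1 tissue alone, and the corepressor list; others were added after their values were seen. Replicate numbers are animals: same-animal deviations correlated with a mean of 0.17 over 36 pairs, the lowest -0.02, against -0.03 over 180 pairs of different animals. Random slide effects had a correlation of 0.04 (statmod 1.5.0). Symbols and neighbours came from RefSeq's gene table of Sscrofa11.1. The array names no build, so no coordinates are given. A search of the probes for a sequence motif is not reported here. A split by number of fingers was not made, since no protein sequence was used here. Alternatives were quantile normalization, median centring, the 75th percentile of probes detected on all arrays, normexp background correction with an offset of 50, the authors' values, other filters and probe rules, blocks for animal and slide, single slides and leaving out each animal.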

Additional observations from a re-analysis of the deposited data

Results flagged for a closer look

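Between the 2 within-slide differences, 32 ZNF genes differed in limma, 3 with a higher and 29 with a lower value of Peyer minus Jejunum than of Spleen minus Liver. Over all genes 35.6% did, 15.2% and 20.4%. The imbalance depended on the scaling, with 10 higher and 16 lower after median centring. The difference of differences was -3.46 for ZNF827 (adjusted p = 5.9e-10), -2.35 for ZNF423 (adjusted p = 2.1e-07) and -1.32 for ZNF322B (adjusted p = 7.8e-07). For these 3 genes Peyer minus Jejunum was -0.23, -0.09 and -0.63, and Spleen minus Liver was 3.24, 2.26 and 0.69. It was 1.44 for ZNF281 (adjusted p = 8.8e-07), 1.79 for ZNF428 (adjusted p = 0.00011) and -1.42 for ZNF704 (adjusted p = 0.038). Among KRAB genes 12 of 48 were lower and 0 higher, with 1 higher at an unadjusted p under 0.05.

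Single arrays stood far from the other 5 of their group in 18 of the 152 groups of 6 examined (11.8%), where chance gives about 1 in 20. The Peyer array of animal 71, where B cell markers averaged -1.80 against 1.60 to 2.08 on the other 5, accounted for ZNF219 (4.91, next 4.04), ZNF414 (5.23, next 3.79) and ZNF768 (2.91, next 2.10), all high, and for ZNF238 (0.41) and ZNF614 (-3.85), both low. The Peyer array of animal 69 was low for the median level of all ZNF genes (-1.68, next -1.31) and for ZNF217 (-1.75, next -0.11), and ZNF366 was high in the Peyer array of animal 73 (-4.93). In Jejunum, animal 71 was low for ZNF365 (-6.66) and ZNF366 (-7.82) and high for ZNF827 (0.24). Animal 70 was high there for ZNF704 (-2.59, next -4.53) and low for ZNF706 (2.75). Animal 68 was low there for ZNF219 (4.64) and animal 69 for ZNF428 (1.09, next 2.61). In Spleen, ZNF467 was high in animal 71 (3.18) and ZNF839 low in animal 68 (-6.92, next -4.52). In Liver, ZNF777 was low in animal 73 (1.42).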

How the results depend on the processing

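Replicate numbers are animals, and pairing the tissues by animal as a replicate block gave 4 called ZNF genes for Peyer minus Jejunum, 24 for Spleen minus Liver and 7 for lymphoid minus non-lymphoid. The block moved no other count of calls by over 1.5 times, and slide as a fixed or random block moved none.

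Leaving out each animal, or the Peyer array of animal 71, gave called counts of 3 to 7 for Peyer minus Jejunum, 22 to 28 for Spleen minus Liver, 19 to 27 for Peyer minus Liver, 17 to 27 for Peyer minus Spleen, 18 to 22 for Spleen minus Jejunum, 19 to 22 for Jejunum minus Liver, 6 to 12 for lymphoid minus non-lymphoid and 25 to 32 for the difference of differences. The medians ranged over -0.095 to -0.033 for Peyer minus Jejunum, 0.31 to 0.44 for Spleen minus Liver, -0.17 to -0.067 for Peyer minus Liver, -0.35 to -0.30 for Peyer minus Spleen, 0.35 to 0.41 for Spleen minus Jejunum, -0.032 to 0.00 for Jejunum minus Liver and 0.12 to 0.18 for lymphoid minus non-lymphoid. Genes highest in a tissue numbered 4 to 8 in Spleen, 0 to 1 in Jejunum, 0 to 2 in Liver and 0 in Peyer each time, and genes with an animal effect 4 to 8. The counts of 7 for Peyer minus Jejunum and 12 for lymphoid minus non-lymphoid came without animal 71. Without animal 68, 0 genes were highest in Liver.

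Single slides, with 2 pigs each, gave Peyer minus Jejunum counts of 2 for animals 68 and 69, 0 for 70 and 71 and 7 for 73 and 75. The difference of differences gave 14, 6 and 17 in the same order. Peyer minus Spleen gave 11 for 70 and 71 and 10 for 73 and 75, and lymphoid minus non-lymphoid gave 13 for 68 and 69 and 11 for 73 and 75. Animals 68 and 69 had 2 genes highest in Spleen, 1 in Jejunum and a Spleen minus Liver median of 0.43. Animals 73 and 75 had 1 in Spleen, 1 in Jejunum and 0 in Liver.

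Median centring put the median of all genes at 0.067 for Peyer minus Jejunum, 0.00 for Spleen minus Liver, 0.15 for Peyer minus Spleen and 0.13 for Peyer minus Liver, and the ZNF medians at 0.11, 0.26, -0.046 and 0.10 in that order. Higher and lower calls became 4 and 1 for Peyer minus Jejunum and 10 and 16 for the difference of differences. Quantile normalization gave medians of 0.073 for Peyer minus Jejunum, -0.24 for Peyer minus Spleen and 0.21 for lymphoid minus non-lymphoid, 14 calls for Peyer minus Spleen, and higher and lower calls of 2 and 1 for Peyer minus Jejunum, 15 and 7 for Peyer minus Liver, 7 and 0 for lymphoid minus non-lymphoid and 5 and 18 for the difference of differences. The 75th percentile of probes detected on all arrays gave 1 gene highest in Jejunum.

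Normexp gave 2 calls for Peyer minus Jejunum, 10 for Spleen minus Liver, 9 for Jejunum minus Liver, 11 for Spleen minus Jejunum, 3 for lymphoid minus non-lymphoid (2 higher and 1 lower) and 11 for the difference of differences (3 and 8), with 1 gene highest in Spleen, 0 in Liver and 4 with an animal effect. Its medians were -0.17 for Peyer minus Jejunum, 0.095 for Spleen minus Liver, -0.39 for Peyer minus Liver, -0.25 for Jejunum minus Liver, -0.43 for Peyer minus Spleen and -0.041 for lymphoid minus non-lymphoid. Its offset of 50 shrinks log2 differences between dim levels by arithmetic, and the part of the offset in these values was not tested.

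The authors' values gave 2 calls for Peyer minus Jejunum, 11 for Spleen minus Liver, 3 for lymphoid minus non-lymphoid (3 higher and 0 lower) and 12 for the difference of differences (3 and 9), and across slides 4 for Peyer minus Liver (4 higher and 0 lower), 2 for Peyer minus Spleen (1 and 1), 3 for Spleen minus Jejunum and 0 for Jejunum minus Liver. Over all genes these values called 9.78% for Peyer minus Jejunum, 33.2% for Spleen minus Liver and 20.2% for lymphoid minus non-lymphoid. They called 29.4% for the difference of differences and 11.7% to 20.6% across slides. No gene was highest in Spleen (0) or Liver (0). The medians were 0.042 for Peyer minus Jejunum, 0.31 for Spleen minus Liver, 0.17 for Peyer minus Liver, -0.12 for Peyer minus Spleen, 0.15 for Spleen minus Jejunum and 0.096 for Jejunum minus Liver. In these values the mean of Peyer and Jejunum minus that of Spleen and Liver never exceeded 0.301 in size for a ZNF gene, against 2.82 in the scanner values, and comparisons across slides contain that difference. ZNF365 (0.033 for Jejunum minus Liver) and ZNF827 (-1.02 for Peyer minus Spleen) reversed there, and ZNF414 (0.38 for Spleen minus Jejunum) reversed with the probe of lowest mean.

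Requiring signal on all 24 arrays left 101 members, with 15 calls and a median of 0.47 for Spleen minus Liver, 14 calls for Peyer minus Spleen, 12 for Spleen minus Jejunum and 2 highest in Spleen. With no filter Peyer minus Liver gave 35 calls and a median of -0.20, and Spleen minus Liver a median of 0.29. The Spleen minus Liver median was 0.33 for the mean over probes, 0.29 for members with a RefSeq symbol and 0.30 when names in any letter case were added. The Peyer minus Liver median was -0.16 for the mean over probes, -0.18 with a RefSeq symbol and -0.27 for the probe of lowest mean. The rule on letter case and the probe of lowest mean were chosen after seeing the data. Over the 52 named-gene results, 1043 values kept direction and side of the threshold, 97 kept direction but lost the call, 1 gained it and 3 reversed. Signal over background limits ZNF366, ZNF264 and ZNF711, which were well above background on no Liver array.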
